A study of Mus musculus with 89 samples.

Results

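The 3 D-type cyclins (Ccnd1, Ccnd2 and Ccnd3), their partner kinase Cdk6, the Cip/Kip inhibitors Cdkn1a and Cdkn1b and the INK4 inhibitors Cdkn2a, Cdkn2b, Cdkn2c and Cdkn2d were followed in the RNA of mouse embryonic stem cells (ESCs) losing Esrrb, Nr5a2 or both. These 10 genes were chosen by symbol, with earlier results of these data known, out of 54146 genes in the tables. All 10 passed the filter on low counts in both media. Every library came from EKOiE ESCs, which lack a functional endogenous Esrrb gene and express Esrrb from a doxycycline (Dox) inducible transgene, or from EKOiE NrKO ESCs, in which the exon that encodes the start of the Nr5a2 DNA-binding domain was also disrupted on both alleles. The labels do not say which NrKO clone a library came from, and the study's supplement names a single clone where it describes RNA-seq reads over the disrupted exon. EKOiE cells were taken with 1 µg/ml Dox (+E+N, both receptors) or 2 days after its withdrawal (-E, no Esrrb), and EKOiE NrKO cells likewise with Dox (-N, no Nr5a2) or 2 days without it (-E-N, neither). Each state was grown in serum with LIF (FCS/LIF, 2 replicates, 8 libraries) and in LIF with inhibitors of Mek and Gsk3 (2i/LIF, 3 replicates, 12 libraries). The +E+N cells used as controls therefore also lack endogenous Esrrb and carry the transgene. Each comparison for Nr5a2 loss also sets EKOiE NrKO against EKOiE cells, and each for Esrrb loss also sets cells without Dox against cells with it. Effects of cell line or Dox cannot be told apart from receptor loss here.

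D-type cyclins bind Cdk4 or Cdk6 and phosphorylate the retinoblastoma protein, which releases E2F factors and starts the G1/S programme. INK4 inhibitors bind Cdk4 and Cdk6 themselves, whereas Cip/Kip inhibitors bind cyclin-Cdk complexes and block mainly Cdk2. Mouse ESCs are known for a short G1 phase and for low levels of most of these regulators, and D-type cyclins are textbook targets of mitogen and Wnt signals. Mek, blocked in 2i/LIF, lies upstream of Erk, and Gsk3, also blocked there, restrains Wnt signalling and marks cyclin D proteins for degradation.

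In mm10, Ccnd1 lies at chr7:144929931-144939925 on the minus strand, Ccnd2 at chr6:127125162-127152193 (minus) and Ccnd3 at chr17:47505051-47599691 (plus). Cdk6 spans chr5:3341485-3531008 (plus), Cdkn1a chr17:29090976-29100727 (plus) and Cdkn1b chr6:134920401-134925513 (plus). Cdkn2a at chr4:89274471-89294653 and Cdkn2b at chr4:89306299-89311039, both minus, are neighbours separated by 11645 bp. Cdkn2c lies on the same chromosome at chr4:109660876-109667189 (minus), and Cdkn2d at chr9:21288410-21291407 (minus). Cdkn2a has 2 coding transcripts, for p16Ink4a and p19Arf, and only p16Ink4a is an INK4 protein. The counts are per gene, so these transcripts cannot be told apart in any Cdkn2a value. On the opposite strand, Ccnd1 overlaps LTO1, Ccnd3 overlaps Bysl, Cdkn1a overlaps AC167363.2, and Ccnd2 and Cdk6 each overlap 2 antisense genes. Libraries were stranded, but whether the counting used strand is not given in the sources used here, so the values of these 5 genes are uncertain to that extent.

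The start sites of Cdkn1a and Cdkn1b are shown because these 2 inhibitors moved in opposite directions. Each line gives the 100 bases before a RefSeq start (GRCm38.p6, plus strand), 5′ to 3′, with CpG dinucleotides in capitals. Cdkn1a start 1 covers chr17:29090879-29090978, Cdkn1a start 2 chr17:29093669-29093768 and Cdkn1b chr6:134920301-134920400.
Cdkn1a start 1: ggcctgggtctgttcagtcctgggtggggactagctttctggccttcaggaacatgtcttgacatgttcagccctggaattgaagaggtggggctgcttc
Cdkn1a start 2: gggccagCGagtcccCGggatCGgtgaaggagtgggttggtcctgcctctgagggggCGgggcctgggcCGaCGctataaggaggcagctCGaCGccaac
Cdkn1b: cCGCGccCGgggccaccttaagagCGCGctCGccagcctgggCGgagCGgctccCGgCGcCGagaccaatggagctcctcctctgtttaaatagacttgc
The first Cdkn1a stretch held 0 CpG, the second 8 and that of Cdkn1b 11. Over the whole 300-base RefSeq window, from 250 bases before to 50 after the start, the first Cdkn1a start held 2 CpG, the second 23 and Cdkn1b 30, where the median of 32851 mouse promoters was 7. Windows with 2 CpG or fewer made up 23.3% of all, and windows with 30 or more 11.7%. In all, 12 windows of 8 of the 10 genes were matched in the table (all but Ccnd1 and Ccnd2). The receptor motifs TCAAGGTCA and TCAAGGCCA, searched on both strands, occurred in 0 of these 12 windows. Of all promoters of that length, 1.01% held either motif (0.423% and 0.591% respectively).

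Library totals ran from 26653035 to 45443379 counts. As a check of the labels, Esrrb in FCS/LIF was at 271 to 352 CPM (counts scaled to the library total) in +E+N and at 65.1 to 74.2 CPM in -E. In 2i/LIF the corresponding values were 515 to 608 and 380 to 441 CPM, a far smaller drop, with 104 to 171 CPM in -E-N. Nr5a2 was at 36.1 to 39.8 CPM in +E+N and 25.5 to 27.1 in -N in FCS/LIF, and at 61.8 to 80.1 and 63.9 to 78.4 CPM in 2i/LIF. Gene-level counts do not separate the transgene from the disrupted endogenous Esrrb gene, and do not resolve the disrupted Nr5a2 exon, so these values check neither knockout. All 9 ESC markers (Pou5f1, Sox2, Nanog and 6 others) stayed above 1 TPM (scaled to transcript length and library total) in every library. Their summed level was nevertheless lower in -E-N, at 4788 to 5201 TPM against 8174 to 8307 TPM in +E+N in FCS/LIF, and at 2862 to 3864 against 7660 to 8085 TPM in 2i/LIF. Of 6 trophoblast markers, 5 reached 1 TPM in every -E-N library in FCS/LIF, with a summed 106 to 147 TPM against 28.2 to 34.3 in +E+N. There the number was also 5 in -E and in -N, with sums of 38.5 to 55.9 and 59.3 to 76.6 TPM, and 3 in +E+N. In 2i/LIF the sums were 31.1 to 44.9 TPM in -E-N and 4.79 to 6.30 in +E+N. The 7 primitive endoderm markers summed to 24.8 to 27.0 TPM in -E-N against 10.7 to 15.2 in +E+N in FCS/LIF, and to 6.24 to 8.31 against 2.24 to 3.28 in 2i/LIF. Of 6 neural markers the sum was 108 to 125 TPM in -E-N and 92.7 to 97.8 in +E+N in FCS/LIF. For 2i/LIF this neural sum was 13.1 to 16.6 TPM in -E-N, below the 30.6 to 40.5 of +E+N. The 5 mesoderm and 9 fibroblast markers summed to at most 13.5 and 8.32 TPM in any library. No ESC, trophoblast, primitive endoderm, neural or mesoderm marker was at 0 in all libraries of a group, while up to 3 of the fibroblast markers were. The part of these cells in the results was not tested. In bulk RNA, fewer cells of a type and less RNA per cell cannot be told apart.

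A gene is called here when edgeR's quasi-likelihood test gave a Benjamini-Hochberg adjusted p under 0.01, over all genes tested, and a fold change over 1.5. Since the 10 genes were chosen with earlier results of these data known, the shares over all genes beside their counts are background and no test. Loss of Esrrb alone moved 4 of the 10 genes in FCS/LIF, where 5.76% of all genes were called. Ccnd2 and Cdkn1a rose while Ccnd3 and Cdkn1b fell. Loss of both receptors moved 6 of 10 in FCS/LIF against 18.8% of all genes. Cdkn1a, Cdkn2a, Cdkn2b, Cdkn2c and Cdk6 rose, and Ccnd1 fell. In 2i/LIF, loss of Esrrb moved 1 of 10 (Ccnd2, higher) against a background of 1.55%, and loss of both receptors moved 3 of 10 against 18.6%, with Ccnd2 and Cdkn1a higher and Cdkn1b lower. Loss of Nr5a2 alone moved 0 of 10 in FCS/LIF, where 0.173% of all genes were called. By unadjusted edgeR p under 0.05 there were 4 of 10 (2550 of 15636 over all genes), and DESeq2 called 0. The same loss moved 0 of 10 in 2i/LIF against 3.65%. There the unadjusted count was 1 (3594 of 14355 over all genes), and DESeq2 called 1 (Ccnd2). The median log2 fold change of the 10 genes in -E-N was 0.58 in FCS/LIF, and that of 2i/LIF was -0.000566, with medians over all genes of 0 and 0.01. The plot of CPM by library shows all of these values.

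**Figure D1:**
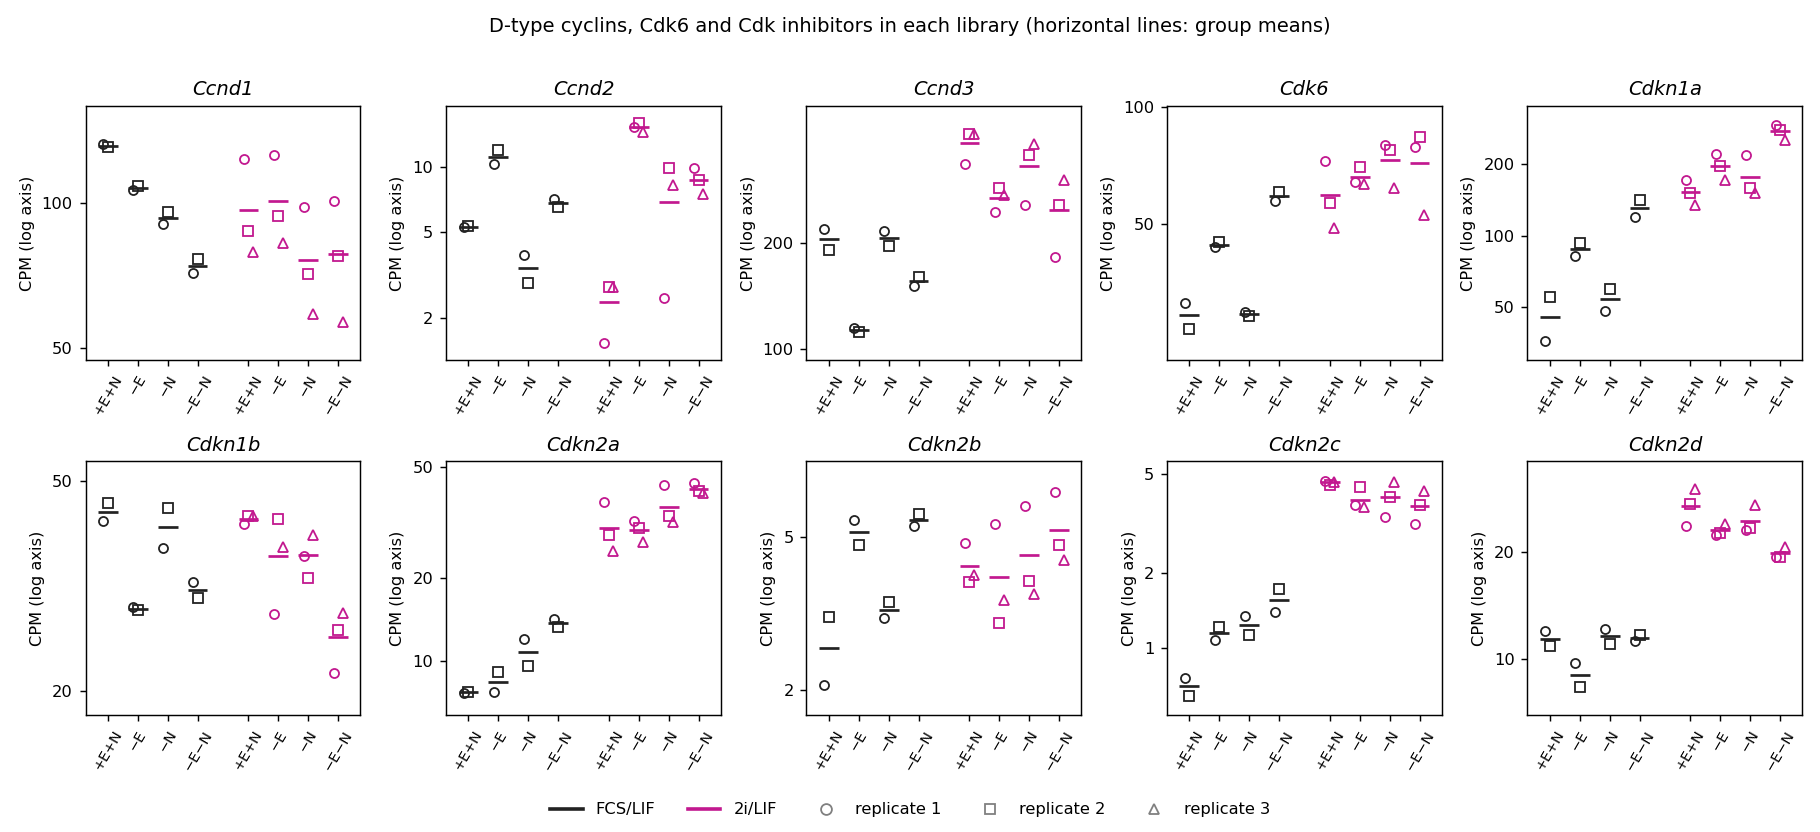
Expression of the 10 genes in each of the 20 libraries, in CPM on log axes that differ between panels, with the 4 states in FCS/LIF (black) and 2i/LIF (magenta), symbols for replicate numbers and horizontal lines for group means. Cdkn1a is highest in -E-N in both media, Ccnd2 is highest in -E in both, and Cdkn2a, Cdkn2c and Cdkn2d lie higher in every 2i/LIF library than in any FCS/LIF library. The share of all genes that separate so was not counted.

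Ccnd2, the D-type cyclin with the lowest RNA in these cells, had the largest change of the 10 in -E in both media. In FCS/LIF it was at 5.25 and 5.34 CPM in the +E+N replicates, 10.3 and 11.9 without Esrrb, 3.92 and 2.92 without Nr5a2 and 7.07 and 6.50 with neither. The -E libraries were the highest and the -N libraries the lowest, with no overlap between any of the 4 states. The rise in -E was 2.07-fold (log2 1.05 ± 0.16 SE, edgeR adjusted p = 0.00242), but the call was lost without any one of the 4 libraries compared, at log2 fold changes of 0.94 to 1.16 and adjusted p of 0.0119 to 0.0337. In -E-N the difference from +E+N was 0.34 ± 0.16 (edgeR adjusted p = 0.115) and in -N -0.65 ± 0.17 (adjusted p = 0.0901). Against -N, whose cells share the disrupted Nr5a2, Ccnd2 rose in -E-N by 0.99 ± 0.17 (edgeR adjusted p = 0.00257). That call was lost without either -E-N library (0.90 and 1.02) and without -N replicate 2 (0.80).

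Ccnd2 also rose in 2i/LIF when Esrrb or both receptors were lost. Its CPM were 1.54, 2.79 and 2.78 with both receptors, 15.2, 15.9 and 14.5 without Esrrb, 2.47, 9.89 and 8.27 without Nr5a2 and 9.89, 8.68 and 7.50 with neither. All -E and -E-N libraries lay above all +E+N libraries, whereas -N replicate 1 fell within the +E+N range. The rise in -E was 6.45-fold (log2 2.69 ± 0.40, edgeR adjusted p = 0.00236). Without any one of the 3 +E+N libraries it was 2.45 to 2.83 and missed the threshold (adjusted p 0.0106 to 0.0109). In -E-N it was 3.71-fold (1.89 ± 0.39, edgeR adjusted p = 0.00213), and 1.65 with an adjusted p of 0.0100448 without +E+N replicate 1. In -N the difference was 1.53 ± 0.39 (edgeR adjusted p = 0.0262) and was not called. With the replicate number as a block, since same-numbered libraries of these states correlated, it was called at 1.49 (edgeR adjusted p = 0.00762). Without -N replicate 1, the library close to the controls, it was 1.94 (edgeR adjusted p = 0.000472).

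Counts and TPM disagreed in size for Ccnd2 in 2i/LIF. Counts ran from 48 to 80 in +E+N and from 420 to 443 in -E. In TPM, which also divides by an estimated transcript length, the means were 0.833 ± 0.11 (SD, n = 3) and 3.08 ± 0.26, so the ratio of the means was smaller than that of the CPM means, 2.37 and 15.2. The CPM per TPM was 2.84 in +E+N in 2i/LIF and 4.38 to 5.14 in the other 7 groups. On log2(TPM + 0.1), limma gave 1.77 for the same comparison and did not call it (adjusted p = 0.0149), and the rise in -E-N was 0.94 and not called either.

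Ccnd3, which gave most of the D-type cyclin RNA, moved the other way. In FCS/LIF it was at 219 and 192 CPM with both receptors, 115 and 111 without Esrrb, 217 and 196 without Nr5a2 and 151 and 160 with neither. It fell by 0.88 ± 0.08 on the log2 scale in -E (1.84-fold lower, edgeR adjusted p = 0.000152). In -E-N the difference was -0.42 ± 0.08 (edgeR adjusted p = 0.00239), short of the fold limit. The -E-N libraries thus lay between those of -E and +E+N, and -E-N exceeded -E by 0.46 ± 0.08 (edgeR adjusted p = 0.00502), again short of the limit. In 2i/LIF the values were 337, 410 and 409 CPM with both receptors, 245, 287 and 275 without Esrrb, 257, 356 and 384 without Nr5a2 and 183, 257 and 303 with neither. The -E and -E-N libraries lay below every +E+N library. Neither difference was called, at -0.52 ± 0.18 in -E (edgeR adjusted p = 0.114) and -0.62 ± 0.18 in -E-N (adjusted p = 0.0138). The latter was called without -E-N replicate 3 (-0.80), without -N replicate 1 (-0.62), by DESeq2 (-0.62), with no filter on low counts (-0.63) and in a single fit of all libraries (-0.64).

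Ccnd1, the D-type cyclin most often tied to mitogen signals, fell in -E-N in FCS/LIF. Its CPM were 133 and 131 with both receptors, 106 and 109 without Esrrb, 90.7 and 96.1 without Nr5a2 and 71.7 and 76.5 with neither. The order +E+N, -E, -N, -E-N held without overlap. It fell 1.80-fold in -E-N (log2 -0.85 ± 0.06, edgeR adjusted p = 1.33e-05). The differences in -E (-0.31 ± 0.06) and -N (-0.52 ± 0.06) passed the p threshold (edgeR adjusted p = 0.0070 and 0.00805) but not the fold limit. In 2i/LIF libraries of a state differed by more than the state means did, with 79.1 to 123 CPM with both receptors, 82.8 to 126 without Esrrb, 59.0 to 98.1 without Nr5a2 and 56.8 to 101 with neither. Replicate 1 was the highest and replicate 3 the lowest in all 4 states. Compared by number, each -N library was lower than the +E+N library of its number. The same held for -E-N, although its replicate 2 did not correlate with that of +E+N (r = -0.0126 over all genes). No difference from +E+N passed without the replicate block. With it, the value was -0.36 in -N, whose libraries correlated with the same-numbered +E+N libraries (edgeR adjusted p = 0.000893), below the fold limit. Without the block the approximate 95% interval for -E-N was -0.76 to 0.18.

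Cdk6, the catalytic partner of the D-type cyclins, rose in FCS/LIF when both receptors were lost. It was at 31.5 and 27.0 CPM with both receptors, 43.6 and 44.9 without Esrrb, 29.9 and 29.1 without Nr5a2 and 57.3 and 60.5 with neither. The -N libraries lay within the +E+N range and both Dox-free states above it. The rise in -E-N was 1.99-fold over +E+N (log2 0.99 ± 0.08, edgeR adjusted p = 3.00e-05) and 2.00-fold over -N (1.00 ± 0.08, adjusted p = 6.47e-05). In -E the difference was 0.58 ± 0.08 (edgeR adjusted p = 0.00169), a 1.497-fold change just short of the limit, and it crossed the limit without +E+N replicate 1 (0.70) and without either -E-N library (0.59), as it did by DESeq2 and with DESeq2 size factors (0.59). In 2i/LIF all states overlapped, with 49.0 to 72.4 CPM with both receptors, 63.3 to 70.1 without Esrrb, 61.9 to 79.6 without Nr5a2 and 52.9 to 83.6 with neither. The differences there were 0.15 to 0.29 and none passed.

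Cdkn1a, which encodes p21, a Cip/Kip inhibitor and textbook target of p53, was the gene that rose in -E-N in both media. In FCS/LIF it was at 36.1 and 55.2 CPM with both receptors, 82.1 and 92.9 without Esrrb, 48.4 and 59.6 without Nr5a2 and 120 and 142 with neither. The -N and +E+N ranges overlapped, and both states without Dox lay above them. The rise in -E-N was 2.82-fold (log2 1.50 ± 0.18, edgeR adjusted p = 0.000274), and against -N it was 2.42-fold (1.28 ± 0.18, adjusted p = 0.00121), a call lost without -E-N replicate 2 (1.12, adjusted p = 0.0151). In -E it was 1.89-fold (0.92 ± 0.18, edgeR adjusted p = 0.00926). This call was lost without +E+N replicate 1 (0.65), without either -E library (1.01 and 0.83) and without either -E-N library (0.93 both times), and was not made by limma on log2(TPM + 1) (1.05, adjusted p = 0.0304).

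In 2i/LIF, Cdkn1a was at 172, 151 and 134 CPM with both receptors, 221, 197 and 171 without Esrrb, 217, 159 and 151 without Nr5a2 and 291, 278 and 252 with neither. Only the -E-N libraries lay above all others. The rise in -E-N was 1.82-fold over +E+N (0.86 ± 0.14, edgeR adjusted p = 0.000331) and 1.58-fold over -N (0.66 ± 0.14, adjusted p = 0.00551), the latter lost without any one -E-N library (0.61 to 0.71) and without -N replicate 2 (0.59) or 3 (0.56). The differences in -E (0.37 ± 0.14) and -N (0.20 ± 0.14) were not called (edgeR adjusted p = 0.147 and 0.416). Compared by number, each -E and each -N library lay above the +E+N library of its number. The rise in -E-N was 0.67 ± 0.25 larger in FCS/LIF than in 2i/LIF, which was not called either (edgeR adjusted p = 0.0622).

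Cdkn1b, which encodes p27, the other Cip/Kip inhibitor of the 10, fell in -E in FCS/LIF and in -E-N in 2i/LIF, where Cdkn1a rose. In FCS/LIF it was at 42.0 and 45.4 CPM with both receptors, 28.9 and 28.5 without Esrrb, 37.3 and 44.5 without Nr5a2 and 32.1 and 30.0 with neither. It fell 1.54-fold in -E (log2 -0.63 ± 0.09, edgeR adjusted p = 0.00222), a call lost without either -E library (-0.63 and -0.61) and without +E+N replicate 2 (-0.57), by limma on log2(TPM + 1) (-0.47) and in a single fit of all libraries (-0.61). The difference in -E-N was -0.51 ± 0.09 (edgeR adjusted p = 0.00204), below the fold limit. In 2i/LIF it was at 41.4, 42.9 and 43.0 CPM with both receptors, 28.1, 42.4 and 37.5 without Esrrb, 36.1, 32.8 and 39.5 without Nr5a2 and 21.6, 26.2 and 28.2 with neither. It fell 1.66-fold in -E-N (-0.73 ± 0.14, edgeR adjusted p = 0.00104), with all 3 libraries below all of +E+N.

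**Figure D2:**
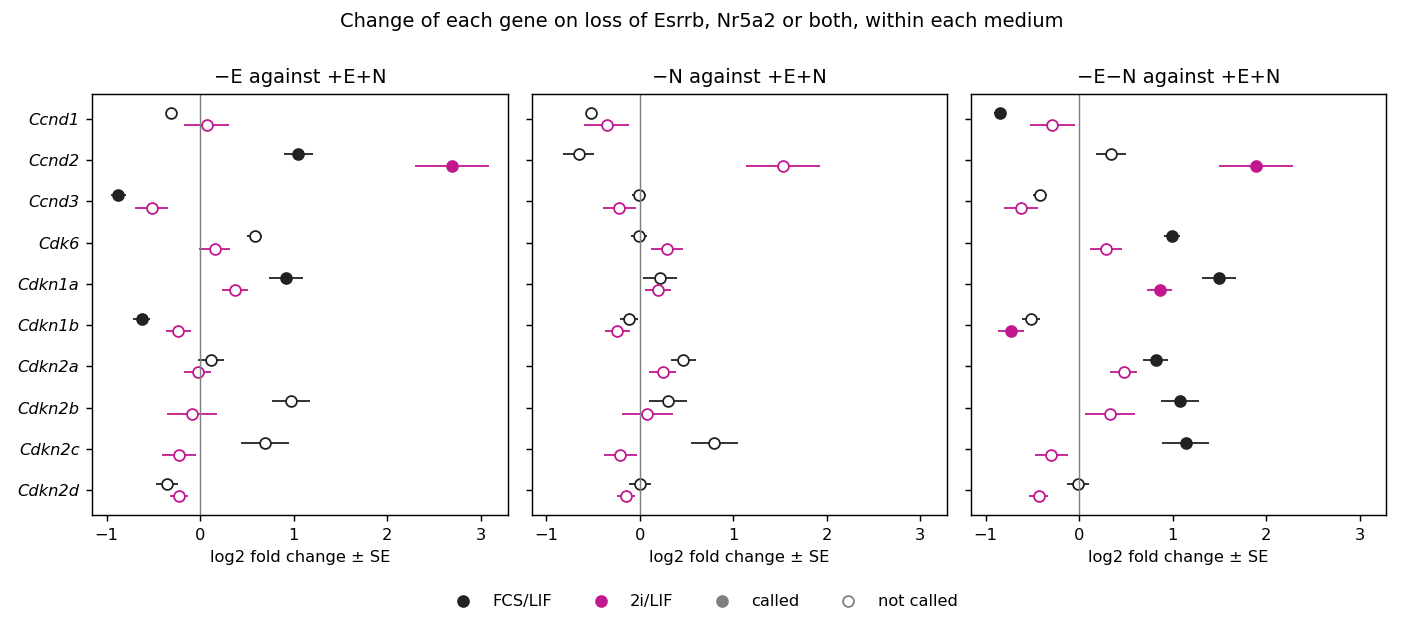
Log2 fold changes of the 10 genes against +E+N within each medium, from edgeR, with horizontal bars for 1 SE, filled points for called genes and open points for the rest. Cdkn1a lies right of 0 and Cdkn1b left of 0 in both media in -E and -E-N, although not every such point is filled, and the 3 filled INK4 points in -E-N are from FCS/LIF (black).

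Among the INK4 genes, Cdkn2a, Cdkn2b and Cdkn2c rose in -E-N in FCS/LIF and none of the 4 was called in any state in 2i/LIF. In FCS/LIF, Cdkn2a was at 7.63 and 7.75 CPM with both receptors, 7.69 and 9.12 without Esrrb, 11.9 and 9.62 without Nr5a2 and 14.2 and 13.3 with neither. Its -E-N libraries were the highest, and it rose 1.76-fold over +E+N (log2 0.82 ± 0.14, edgeR adjusted p = 0.00136), a call lost without either -E-N library (0.75 and 0.85). It was also higher in -E-N than in -E by 0.71 ± 0.14 (edgeR adjusted p = 0.00821), which was lost without any one of the 6 libraries of +E+N, -E and -E-N (0.57 to 0.82, adjusted p 0.0101 to 0.104). In 2i/LIF, Cdkn2a was at 24.9 to 37.4 CPM with both receptors, 26.9 to 32.1 without Esrrb, 31.7 to 43.1 without Nr5a2 and 40.3 to 43.8 with neither. The last lay above all +E+N libraries, with a difference of 0.48 ± 0.14 that was not called (edgeR adjusted p = 0.0184). Without +E+N replicate 1 it was called at 0.66 (edgeR adjusted p = 0.00229).

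Cdkn2b, the p15 gene next to Cdkn2a, was at 2.06 and 3.09 CPM with both receptors in FCS/LIF, 5.53 and 4.76 without Esrrb, 3.08 and 3.39 without Nr5a2 and 5.33 and 5.73 with neither. Both Dox-free states lay above both states with Dox. The rise in -E-N was 2.11-fold (log2 1.08 ± 0.20, edgeR adjusted p = 0.00257), lost without either -E-N library (1.11 and 1.01) and without +E+N replicate 1 (0.83). In -E the difference was 0.97 ± 0.20 (edgeR adjusted p = 0.0111), just outside the threshold, and it was called without +E+N replicate 2 (1.30), by DESeq2 (0.98) and with no filter on low counts (0.97). In 2i/LIF the states overlapped, from 2.98 to 6.54 CPM, and replicate 1 was the highest in each.

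Cdkn2c, the p18 gene, had the fewest counts of the 10 in FCS/LIF, with 28 to 70 per library. Its CPM there were 0.758 and 0.642 with both receptors, 1.08 and 1.21 without Esrrb, 1.35 and 1.12 without Nr5a2 and 1.39 and 1.73 with neither. All other libraries lay above +E+N, and in -E-N the gene rose 2.21-fold (log2 1.14 ± 0.25, edgeR adjusted p = 0.0055). At these counts the call was lost without any one of the 6 libraries of +E+N, -E and -E-N (0.96 to 1.27, adjusted p 0.0124 to 0.0504). DESeq2 did not make it (1.14, adjusted p = 0.0260), nor did limma on log2(TPM + 1) (0.47) or log2(TPM + 0.1) (0.95). In 2i/LIF it was at 4.68, 4.53 and 4.66 CPM in +E+N and at 3.15, 3.74 and 4.29 in -E-N, a difference of -0.30 ± 0.18 (edgeR adjusted p = 0.206). Cdkn2d, the p19Ink4d gene, was at 10.9 to 11.9 CPM with both receptors, 8.31 to 9.71 without Esrrb, 11.0 to 12.1 without Nr5a2 and 11.2 to 11.7 with neither in FCS/LIF, with no call. In 2i/LIF it was at 23.7 to 30.0 CPM in +E+N and 19.3 to 20.7 in -E-N, and the difference of -0.43 ± 0.10 passed the p threshold (edgeR adjusted p = 0.00408) but not the fold limit.

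The remaining contrasts within a medium compare states that differ in 1 receptor on the background of losing the other, together with the cell line or Dox. Adding the loss of Esrrb to that of Nr5a2 (-E-N against -N) moved 3 of 10 genes in FCS/LIF against 10.1% of all genes, namely Ccnd2, Cdkn1a and Cdk6, all higher. In 2i/LIF it moved 1 of 10 (Cdkn1a) against 6.76%. In FCS/LIF, Cdkn2b joined without either +E+N library (0.77). Adding the loss of Nr5a2 to that of Esrrb (-E-N against -E) moved 1 of 10 in FCS/LIF (Cdkn2a, higher) against 5.05%. There Ccnd2 was at -0.71 ± 0.16 and was not called, but was called without either -N library (-0.71), by DESeq2 (-0.72) and with no filter on low counts (-0.72). Ccnd1 was at -0.54 ± 0.06, below the fold limit, and passed it without -E-N replicate 2 (-0.61). In 2i/LIF it moved 0 of 10 against 13.1%, with 4 of 10 at an unadjusted edgeR p under 0.05 (6064 of 14355 over all genes) and 0 by DESeq2. Ccnd2 was called there without -N replicate 1 (-0.80) and Cdkn1b without -E replicate 1 (-0.64). The interaction term asks whether the joint loss differs from the sum of the single losses and carries no fold limit. It called 0 of 10 in FCS/LIF against 0.032%, with 2 at an unadjusted edgeR p under 0.05 (1384 of 15636 over all genes) and 0 by DESeq2. Those 2 were Ccnd3 (0.47 ± 0.11) and Cdk6 (0.42 ± 0.11), and Ccnd3 was called with no filter on low counts (0.46). For 2i/LIF the term called 0 of 10 against 0.307%, with 1 at an unadjusted edgeR p under 0.05 (1962 of 14355 over all genes) and 1 by DESeq2. The gene nearest to the threshold was Ccnd2 in 2i/LIF, whose -E-N value lay below that sum (interaction -2.33 ± 0.54, edgeR adjusted p = 0.0578). Without -N replicate 1, the library in which Ccnd2 was close to +E+N, the term was -2.73 and was called (edgeR adjusted p = 0.00248).

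Between media the differences were larger. In +E+N, 6 of 10 genes were called by edgeR on counts, all higher in 2i/LIF, where 34.7% of all genes were called. One of them, Cdk6, was not called on TPM. Among the 6 were 3 INK4 genes. Cdkn2c was 6.60-fold higher (log2 2.72 ± 0.22, edgeR adjusted p = 2.35e-08), Cdkn2a 3.94-fold (1.98 ± 0.17, adjusted p = 4.19e-08) and Cdkn2d 2.37-fold (1.24 ± 0.11, adjusted p = 7.33e-08). Cdkn1a was 3.33-fold higher (1.73 ± 0.19, edgeR adjusted p = 6.16e-07), Cdk6 2.04-fold (1.03 ± 0.18, adjusted p = 8.68e-05) and Ccnd3 1.88-fold (0.91 ± 0.18, adjusted p = 0.000285). For each of these 6 genes, already picked by the call, every 2i/LIF library of +E+N lay above both of FCS/LIF. The share of all genes that separate so was not counted. Ccnd2 went the other way without being called (-1.17 ± 0.37, edgeR adjusted p = 0.0126), Ccnd1 was at -0.45 ± 0.23 and Cdkn1b at -0.04 ± 0.14, with an approximate 95% interval of -0.31 to 0.23 for the latter. Ccnd2 was called without 2i/LIF -N replicate 1 (-1.19) or replicate 2 (-1.17), libraries outside this contrast that enter the shared estimate of the spread. DESeq2 also called Ccnd2 as lower in 2i/LIF (-1.20, adjusted p = 0.00291), and so called 7 of the 10 (5715 over all genes, 5607 by edgeR). With no filter on low counts, edgeR called it as lower too (-1.22).

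The called genes were nearly the same in the other states. In -E, 5 of 10 were called against 38.8% of all genes, in -N 6 of 10 against 31.6%, and in -E-N 5 of 10 against 35% of all genes, always higher in 2i/LIF on counts. Cdkn2a (1.60 to 1.98), Cdkn2c (1.25 to 2.72), Cdkn2d (0.79 to 1.35), Cdkn1a (1.07 to 1.73) and Ccnd3 (0.67 to 1.25) were called on counts in all 4 states. Cdk6 was called on counts in +E+N and -N (1.31 ± 0.18), in neither on TPM, and was lower in 2i/LIF on TPM in -E-N (-0.73). Ccnd2 in -N was 1.01 ± 0.37 higher in 2i/LIF without being called, and was called without 2i/LIF -N replicate 1 (1.40). For Ccnd3 in -N (0.69 ± 0.17) the call was lost without either FCS/LIF -N library and without 2i/LIF -N replicate 2 or 3 (0.57 to 0.83 over all libraries left out), and in -E-N (0.67 ± 0.18) without either FCS/LIF -E-N library and without 2i/LIF -E-N replicate 2 or 3 (0.50 to 0.85). On log2(TPM + 1), limma called neither (0.59 and 0.50). In -E-N it put Cdkn2c at 0.56, below the fold limit, and called Cdkn1b as lower in 2i/LIF (-0.62, limma adjusted p = 0.00230). Cdkn1b was called as lower on log2(TPM + 0.1) as well (-0.65). The labels name no batch shared by the media, so a batch and the medium cannot be told apart.

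The Cdk6 difference depended on the unit. In CPM its group means were 29.2 to 58.9 in FCS/LIF and 59.4 to 73.0 in 2i/LIF. In TPM they were 17.9 to 37.3 and 20.7 to 25.4, and the CPM per TPM was 1.33 to 1.77 in FCS/LIF against 2.49 to 3.18 in 2i/LIF. In -E-N the gene was 0.29 ± 0.17 higher in 2i/LIF by edgeR on counts, and at -0.73 by limma on log2(TPM + 1), which was called as lower (adjusted p = 0.00864). In +E+N and -N the limma values were 0.40 and 0.19 and were not called. In +E+N and -N both units thus put Cdk6 higher in 2i/LIF, but only counts called it. In -E-N the direction differed between the units. In -E the group means in FCS/LIF and 2i/LIF were 44.3 and 65.9 CPM, but 25.0 and 20.7 TPM.

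**Figure D3:**
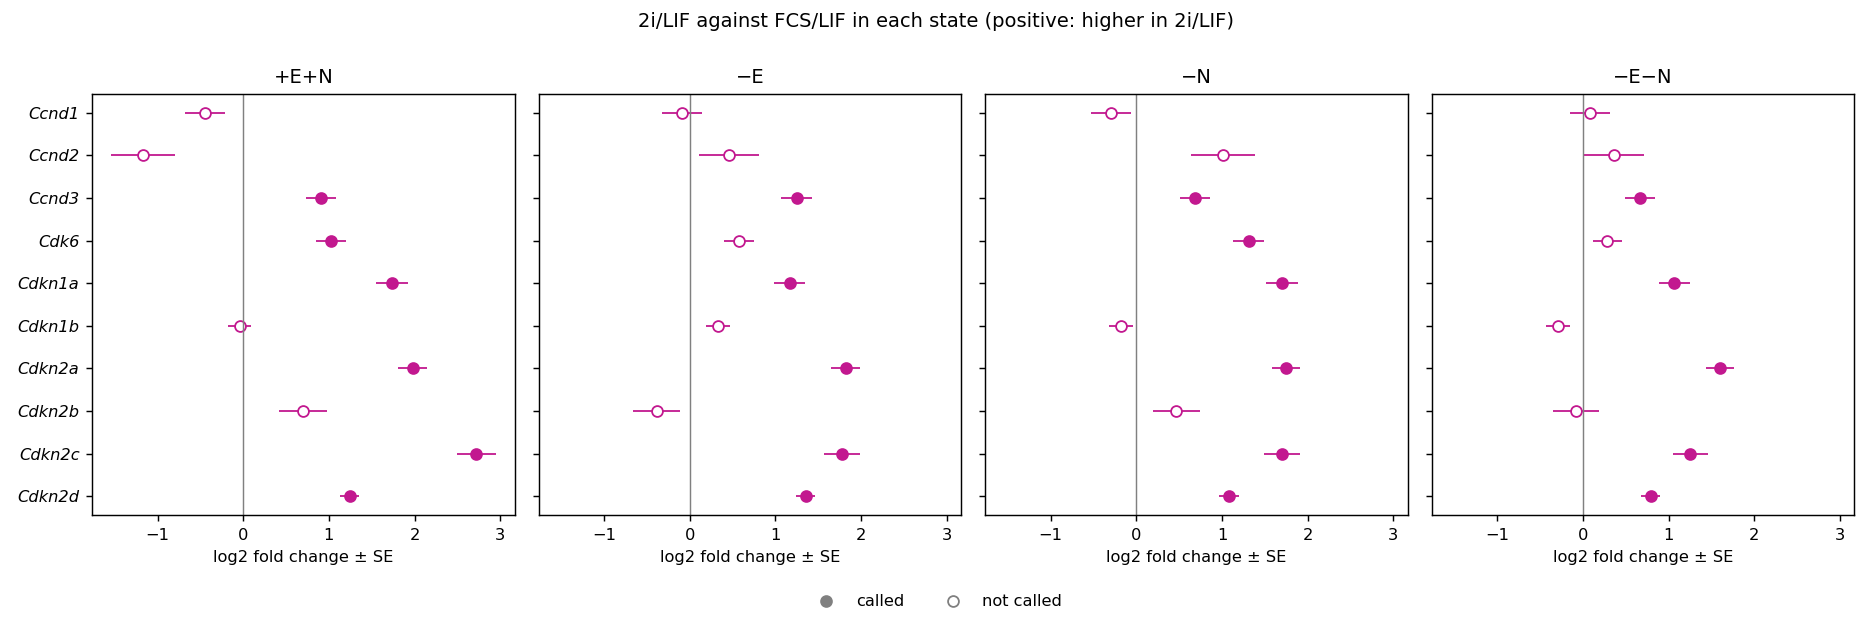
Log2 fold changes between 2i/LIF and FCS/LIF of the 10 genes in each of the 4 states, from an edgeR fit of all 20 libraries, with bars for 1 SE, filled points for called genes and positive values for higher in 2i/LIF. On these counts all filled points are positive, and Cdkn2c moves from 2.72 in +E+N to 1.25 in -E-N. Those of Cdk6 in +E+N and -N, Ccnd3 in -N and -E-N and Cdkn2c in -E-N were not called by limma on log2(TPM + 1).

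Whether the response to receptor loss itself differed between media was tested as the log2 fold change in FCS/LIF minus that in 2i/LIF, with no fold limit. For -E, 0 of 10 genes were called against 1.06% of all genes, with 4 at an unadjusted edgeR p under 0.05 (2834 of 16147 over all genes) and 0 by DESeq2. For -N, 0 of 10 were called against 0.743%, with 2 at an unadjusted edgeR p under 0.05 (2475 of 16147 over all genes) and 1 by DESeq2. For -E-N, 1 of 10 was called against 13.2%. That gene was Cdkn2c, with a difference of 1.47 ± 0.29 (edgeR adjusted p = 0.00164), since it rose by 1.14 in FCS/LIF and was at -0.30 in 2i/LIF. The call was lost without FCS/LIF +E+N replicate 2 (1.34) or FCS/LIF -E-N replicate 2 (1.27), and the difference ran from 1.27 to 1.59 over all single libraries left out. It was also lost with no filter on low counts (1.41, edgeR adjusted p = 0.0106) and by limma on log2(TPM + 1) (0.78). The Ccnd2 differences were -1.62 ± 0.51 for -E, -2.17 ± 0.53 for -N and -1.52 ± 0.52 for -E-N, with edgeR adjusted p of 0.0972, 0.0347 and 0.0418. Each was called without 2i/LIF -N replicate 1 (-1.63, -2.60 and -1.55).

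**Figure D4:**
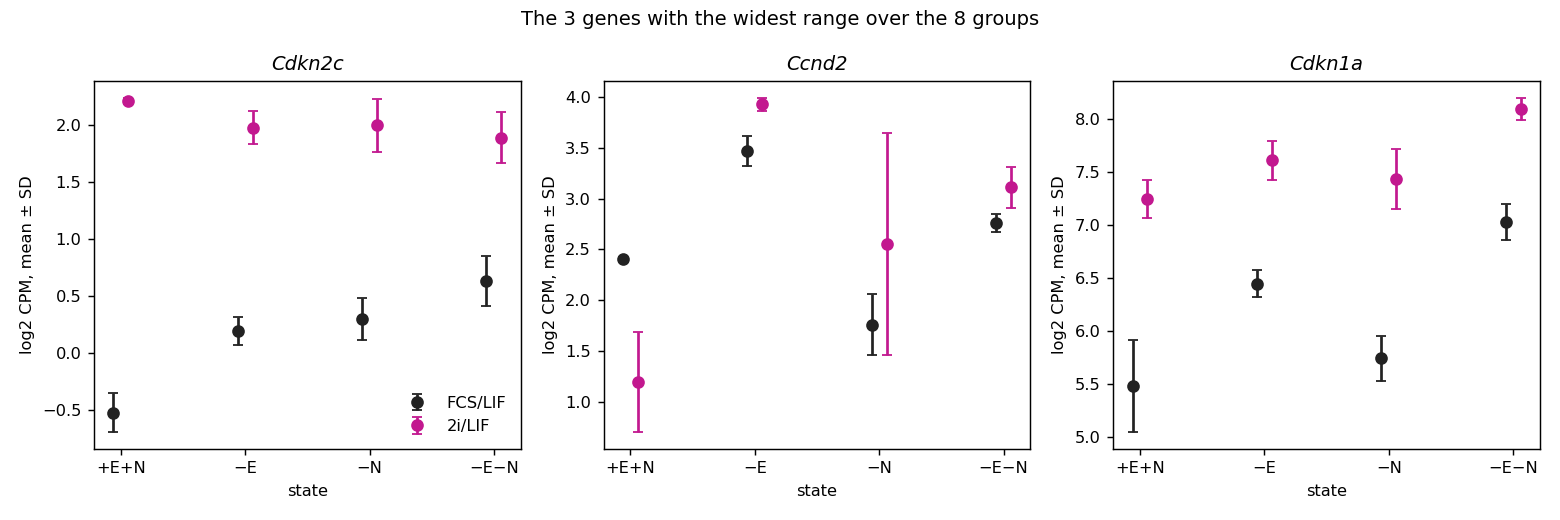
Mean log2 CPM with SD (n = 2 in FCS/LIF, n = 3 in 2i/LIF) of the 3 genes whose group means spanned the widest range, by state and medium. Cdkn2c lies lower in FCS/LIF in every state and is closest to its 2i/LIF level in -E-N, Ccnd2 has its widest spread in -N in 2i/LIF, and Cdkn1a is highest in -E-N in both media.

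Over the 8 groups, mean log2 CPM spanned 2.70 for Ccnd2, 2.63 for Cdkn2c, 2.61 for Cdkn1a and 2.43 for Cdkn2a. The narrowest spans were 0.79 for Cdkn1b and 0.83 for Ccnd1. For Cdkn1a all 4 group means of 2i/LIF lay above those of FCS/LIF, but the highest FCS/LIF state, -E-N at 120 and 142 CPM, overlapped the lowest of 2i/LIF, +E+N.

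Levels can be compared between genes in TPM, which scales by length. Ccnd3 made up 67.3% to 88.9% of the summed D-type cyclin TPM in the group means, Ccnd1 10.5% to 30.8% and Ccnd2 0.280% to 1.90%. The cyclin sum was 186 ± 9.6 TPM (SD, n = 2) in +E+N and 126 ± 0.75 in -E in FCS/LIF, and 297 ± 27.9 (n = 3) and 213 ± 17.0 in 2i/LIF. The sum was lower in -E although Ccnd2 rose, since Ccnd2 gave at most 1.90% of it. The sum of Cdkn1a and Cdkn1b, which leaves out Cdkn1c, shifted towards Cdkn1a, whose share was 60.4% ± 8.6 in +E+N and 85.6% ± 1.8 in -E-N in FCS/LIF, and 84.4% ± 1.4 and 94.3% ± 1.1 in 2i/LIF. In each medium the -E-N shares lay above all +E+N shares. Among INK4 genes Cdkn2a was first in every group, with 49.7% to 73.2% of the summed TPM, and Cdkn2d second, with 19.7% to 39.3%. The INK4 sum was 29.2 ± 0.90 TPM in +E+N and 49.4 ± 0.62 in -E-N in FCS/LIF, and 87.7 ± 5.9 and 103 ± 1.0 in 2i/LIF. These shares are descriptions, and those of Cdkn2a include the p19Arf transcript.

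**Figure D5:**
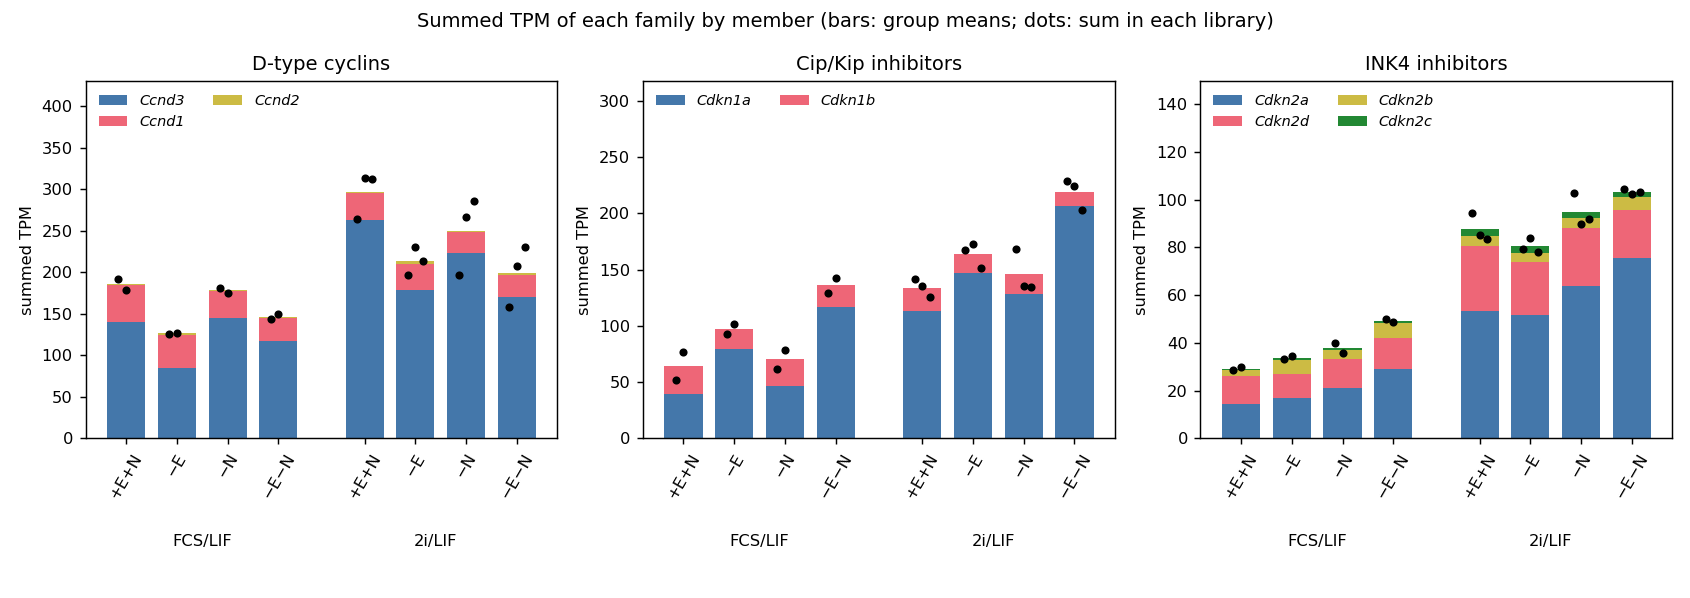
Summed TPM of the D-type cyclins, the Cip/Kip inhibitors Cdkn1a and Cdkn1b and the INK4 inhibitors by state and medium, as stacked group means per gene from 0, with dots for the sum in each library. Of the genes shown, Ccnd3, Cdkn1a and Cdkn2a form the largest block of their family in every group. The sum of Cdkn1a and Cdkn1b, which leaves out Cdkn1c, is highest in -E-N in both media.

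The wider cell-cycle lists, like the lists in the next paragraphs, were also chosen with earlier results of these data known. These cell-cycle lists were counted in -E-N against +E+N, where 18.8% of all genes were called in FCS/LIF and 18.6% in 2i/LIF. An unadjusted edgeR p under 0.05 was reached there by 8405 of 15636 genes in FCS/LIF and 7034 of 14355 in 2i/LIF. Of 22 DNA replication genes, 0 were called in -E-N in either medium by edgeR and 0 by DESeq2. An unadjusted edgeR p under 0.05 was reached by 13 in FCS/LIF and 11 in 2i/LIF, close to the shares over all genes. Median log2 fold changes of this list were -0.24 (FCS/LIF) and -0.09 (2i/LIF). Of 22 G2/M genes, 1 fell in FCS/LIF, Mybl2 (-1.40 ± 0.07), a transcription factor of the G2/M programme, and 2 fell in 2i/LIF, Mybl2 (-0.65 ± 0.08) and Cdk1 (-0.59 ± 0.07), the mitotic kinase, while 20 and 15 of the list had an unadjusted edgeR p under 0.05 and medians were -0.30 and -0.18. Of 11 G1/S cyclins, Cdks and activators tested, Ccne2 rose (0.86 ± 0.09) and Ccne1 fell (-0.59 ± 0.14) in FCS/LIF, both of them E-type cyclins that act after the D-type cyclins. In 2i/LIF, 0 of 11 were called, with 4 at an unadjusted edgeR p under 0.05 and 0 by DESeq2. Cdk4, the other kinase partner of the D-type cyclins, was at -0.22 ± 0.08 and -0.04 ± 0.10 in -E-N in the respective media, and was not called. Of 10 E2F and DP factors, E2f2 fell in both media (-1.21 ± 0.12 in FCS/LIF, -0.71 ± 0.17 in 2i/LIF) and E2f6, a repressor, rose in FCS/LIF (0.63 ± 0.09).

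Genes known to act upstream of the 10 were counted in the same way, beside the same 18.8% and 18.6% of all genes. Among p53 and 16 of its targets, 5 of 17 rose in -E-N in FCS/LIF, led by Perp (1.89 ± 0.15), Plk2 (0.99 ± 0.22) and Phlda3 (0.96 ± 0.16). In 2i/LIF, 3 of 16 tested rose, namely Phlda3 (2.33 ± 0.17), Plk2 (1.10 ± 0.15) and Perp (0.93 ± 0.21), and Rrm2b fell (-0.95 ± 0.19). Over the list the median came to 0.31 in FCS/LIF, while that of 2i/LIF was 0.15. Trp53 RNA itself was at -0.50 ± 0.06 and -0.50 ± 0.10, below the fold limit in both. Of 12 Polycomb genes, whose products are known to repress the Cdkn2a-Cdkn2b locus, 3 rose in -E-N in FCS/LIF, Cbx8 (1.01 ± 0.19), Phc2 (1.01 ± 0.10) and Bmi1 (0.93 ± 0.12), and Eed fell (-0.68 ± 0.08). In 2i/LIF, Phc2 rose (1.33 ± 0.16) and Phc1 fell (-0.66 ± 0.15). Of 5 other Cdk inhibitors and pocket proteins, 0 were called in FCS/LIF, with 3 at an unadjusted edgeR p under 0.05 (8405 of 15636 over all genes) and 0 by DESeq2. In 2i/LIF, Cdkn1c, the third Cip/Kip gene, which encodes p57, rose by 2.82 ± 0.32. Its level in +E+N was lower in 2i/LIF than in FCS/LIF (Cdkn1c -5.99 ± 0.27).

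Targets of the pathways that the 2 inhibitors act on were also read in the same tables, again beside 18.8% (FCS/LIF) and 18.6% (2i/LIF) of all genes called in -E-N. Of 7 Wnt target genes, 4 rose and 1 fell in -E-N in FCS/LIF (median 1.27), with Notum (-3.58 ± 0.17) and Sp5 (3.17 ± 0.22) changing most. Notum lay below 0 there although the median of the list was positive. In 2i/LIF, 6 of 7 rose (median 1.64), led by Lef1 (5.03 ± 0.30) and Sp5 (3.05 ± 0.38). Of 10 Erk response genes, 7 were lower and 1 higher in 2i/LIF than in FCS/LIF in +E+N, where 34.7% of all genes were called (median -1.80), with Egr1 at -6.08 ± 0.38, Dusp4 at -5.24 ± 0.29 and Spry4 at -4.54 ± 0.66. In -E-N, 3 Erk response genes rose and 3 fell in FCS/LIF, and 2 of 8 tested rose and 1 fell in 2i/LIF.

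Over the 20 libraries, centred on the medium, the genes whose log2 CPM followed Ccnd2 most closely were Skil (r = 0.84), Camk2a (0.84) and Mcl1 (0.81). For Cdkn2c they were Myo1c (0.84), Efhd2 (0.83) and Pcgf5 (0.83), and for Cdkn1a Yipf3 (0.95), Susd6 (0.95) and Rap2b (0.94). These correlations are descriptions over libraries that share state and medium, and carry no test. Without centring other genes came first for each of the 3, among them the Wnt target Sp5 for Cdkn1a (0.97).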

How the data were processed

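Stranded poly-A RNA was sequenced from 20 libraries in 8 groups of state and medium; 69 ChIP-seq samples of the series were not analysed here. The authors aligned paired reads to mm10 with STAR, quantified genes with RSEM and deposited estimated counts, rounded to whole numbers, and TPM (versions not given in the sources used here). RSEM shares reads that match several transcripts by an estimate, which can move both units, and TPM also depends on the transcript length it estimates. Of 54238 rows, 92 spike-in rows held no counts and were left out. Counts were fitted with edgeR 4.0.16 (R 4.3.3; TMM normalisation, quasi-likelihood test, Benjamini-Hochberg adjustment), within each medium for the states and over all 20 libraries for the media. Genes needed 20 counts in all replicates of a state, and calls needed an adjusted p under 0.01 with a fold change over 1.5 (no fold limit for interactions and differences of responses). CPM were scaled by TMM over the 20 libraries. Intervals are 1.96 SE. Scripts were tested on simulated data.

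The alternatives were DESeq2 1.42.0, its size factors, other filters and thresholds, limma 3.58.1 on TPM in log2 with pseudocounts of 1 and 0.1, a replicate block, 1 fit of all libraries and leaving out each library. The labels give replicates by number alone, and the study's figure legends call each RNA-seq replicate an independent experiment. The p-values measure the spread between these samples. In 2i/LIF, deviations from the group means of same-numbered libraries correlated at -0.0126 to 0.572 (median 0.383). Those of other numbers correlated at -0.514 to 0.175 (median -0.168). Every same-numbered pair exceeded 0.1 in each comparison of 2 states except -E-N against +E+N (replicate 2). Some pairs of other numbers did too, such as +E+N replicate 2 with -N replicate 3 (0.175). In FCS/LIF the same-numbered range was 0.0361 to 0.360, from 2 libraries per state. Whether equal numbers mark paired libraries was therefore not settled in either medium. Of the 10 genes, the text names those called in each comparison, but does not give the values of the others in all of them. Of each other list it names at most the 3 called genes with the largest change, plus Cdk4, Trp53 and genes in counts of 5 or fewer. The 10 genes and all lists were chosen with earlier results of these data known.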

Additional observations from a re-analysis of the deposited data

Results flagged for a closer look

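One result was singled out because its effect differed between the media by a test of the difference itself. The change of Cdkn2c in -E-N was 1.47 ± 0.29 larger on the log2 scale in FCS/LIF than in 2i/LIF (edgeR's quasi-likelihood test, Benjamini-Hochberg adjusted p = 0.00164). The call was lost with no filter on low counts (1.41, edgeR adjusted p = 0.0106), by limma on log2(TPM + 1) (0.78, adjusted p = 0.0166) and log2(TPM + 0.1) (1.39, adjusted p = 0.0101), and without FCS/LIF +E+N replicate 2 (1.34) or FCS/LIF -E-N replicate 2 (1.27). Counts behind it were 28 and 29 in +E+N and 53 and 70 in -E-N in FCS/LIF, and 122 to 146 and 96 to 127 in 2i/LIF. No group had the 4 samples that a check for a single outlying library needs.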

How the results depend on the processing

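Of the values recomputed under the alternatives, 3902 kept their side of the threshold, 80 were no longer called and 66 became called. Another 2, called under the alternative, turned sign. Both were Cdk6 between the media in -E-N by limma, at -0.73 on log2(TPM + 1) and -0.75 on log2(TPM + 0.1). A turn of sign in a value called in neither fit was counted among the 3902. The number of the 10 genes called changed by over 1.5 times as follows, and the cause was not tested unless the setting itself states it. In the main fit, calls over all genes in FCS/LIF were 901 (-E), 27 (-N), 1573 (-E-N against -N), 790 (-E-N against -E) and 5 (interaction). In 2i/LIF they were 223 (-E), 524 (-N) and 44 (interaction), and for the media's differences in response to -E, -N and -E-N 171, 120 and 2136. Brackets give those of each setting in the same order. With no fold limit the number of the 10 became 1 for -N, 5 for -E-N against -N and 4 for -E-N against -E in FCS/LIF (31, 2568 and 1258). At an adjusted p under 0.05 it was 2 for -E-N against -E in FCS/LIF and 1 for -N in 2i/LIF (1511 and 980). For the media's difference in response to -N and -E-N it was 1 and 4 (480 and 3821). DESeq2 gave 2 for -E-N against -E in FCS/LIF (1042). It gave 1 each for -N and the interaction in 2i/LIF and for the difference in response to -N (860, 303 and 456). Keeping genes of low counts made it 1 for -N, 2 for -E-N against -E and 1 for the interaction in FCS/LIF (548, 1571 and 242). In 2i/LIF it then was 1 for -N and 1 for the interaction (828 and 212). For the differences in response to -E, -N and -E-N it was 2, 1 and 4 (706, 809 and 2973). These 4 were Ccnd1, Ccnd2, Cdkn1a and Cdk6, without Cdkn2c, at 1.41. With the replicate block it was 2 for -E-N against -E in FCS/LIF and 1 for -N in 2i/LIF (1265 and 1115). The block gave 2, 1 and 5 for the differences in response to -E, -N and -E-N (728, 686 and 3703). The block also added Cdkn2b in FCS/LIF in -E (0.98) and against -N (0.77), and Ccnd2 in -E-N against -E (-0.71). It added Ccnd3 in -E-N in 2i/LIF (-0.64), and Ccnd2 (-1.19) and Cdkn2b (0.70) between media in +E+N. Whether equal numbers mark paired libraries was not settled for these or for the other block results. For -E-N against +E+N in 2i/LIF the block put Ccnd1 at -0.30 (edgeR adjusted p = 0.000905), below the fold limit. limma on TPM gave 2 for -E in FCS/LIF at either pseudocount (553 with 1 and 609 with 0.1). It gave 0 for the difference in response to -E-N at either (2225 and 1796), and 0 for -E in 2i/LIF with 0.1 (146). A single fit of all libraries gave 2 for -E and 0 for -E-N against -E in FCS/LIF, and 1 for -N in 2i/LIF (445, 437 and 792).

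Leaving out 1 library at a time gave, in FCS/LIF, 1 to 4 genes for -E, 3 to 6 for -E-N, 1 to 4 against -N and 0 to 2 against -E. In 2i/LIF it gave 0 to 1 for -E, -N, the interaction and both single-step contrasts, and 3 to 4 for -E-N. Between media it gave 6 to 7, 5 to 5, 5 to 7 and 4 to 5 in +E+N, -E, -N and -E-N, and for the differences in response 0 to 1, 0 to 1 and 0 to 2. Calls over all genes with 1 library left out are not given here. Over all genes, DESeq2 and edgeR called 264 and 27 for -N, and 63 and 5 for the interaction, in FCS/LIF. In 2i/LIF they called 447 and 223 for -E, 860 and 524 for -N, and 303 and 44 for the interaction, and for the differences in response to -E and -N 532 and 171, and 456 and 120. States had 2 or 3 libraries, and Cdkn2c as few as 28 counts in one.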
